A study of Homo sapiens with 267 samples.

Results

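K562 cells stained with CellTracker Orange and labelled as treated with benzene (10 mM, 3 h) were compared with untreated K562 cells stained with CellTracker Green. The library titles of both stains share a prefix, and libraries of 1 prefix are called a run here. Both stains also carried the LIVE/DEAD Fixable Red dead cell dye and had the same passage label. The libraries were chosen by the run prefix of their titles, by a count column of the same title, and by 2 limits on complexity, at most 70% of reads in the 500 genes with most reads and fewer than 10000 genes at more than 2 reads. Of the 75 libraries of this run in the labels, 71 had a column (35 Orange, 36 Green), and 62 were kept (32 Orange, 30 Green) of 263 libraries with a column in the whole series. K562 is an established human erythroleukaemia cell line driven by the BCR-ABL fusion, and on the C1 chip single cells are caught in microfluidic sites, where their poly(A) RNA is copied into cDNA and amplified. The labels name no separate cultures, so the libraries of a stain count as cells of 1 sample, and no test between the stains was possible. Dye and benzene were always combined in the Orange libraries and cannot be told apart, and whether a library came from a fresh or a fixed cell was not mapped here. In its CellTracker experiments the paper captured fresh cells at once and fixed cells days later, so a run can hold more than 1 C1 capture.

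Benzene itself reacts little with cells and is oxidised by cytochrome P450 enzymes, chiefly CYP2E1, to an epoxide that becomes phenol, hydroquinone and catechol. Myeloperoxidase can oxidise these phenols to quinones, which NQO1 reduces again and which glutathione transferases conjugate. Quinones that escape are known to bind proteins, to deplete glutathione and to damage DNA, and blood-forming cells are the known target of benzene toxicity. The aryl hydrocarbon receptor AHR and the transcription factor NRF2, encoded by NFE2L2, are the best-known regulators of the genes that handle such compounds.

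The kept libraries of the stains were alike in depth and complexity. Reads on genes were 1078994 to 1621888 per Orange library and 1040093 to 1657889 per Green library. The Orange libraries had 4534, 5812 and 8394 genes at more than 2 reads (lowest, median, highest; SD over libraries 915), and the Green libraries 3959, 5957 and 7304 (SD 872). Mitochondrially encoded RNA took a median of 6.43% of reads in the Orange and 6.56% in the Green libraries, and spiked-in ERCC RNA 4.28% and 3.97% of all reads. The stains overlapped in each of these measures. The limit on the top 500 genes, which is part of the rule, removed 5 of 36 Green and 1 of 35 Orange libraries. Those 5 Green libraries had 1410 to 3200 genes, with 75.1 to 97.0% of reads in the top 500, while the Orange library lay at 70.02%, next to a kept Green library at 69.8%. The limit on genes removed 2 Orange and 1 Green library with 11248 to 11773 genes, and the kept library nearest to it had 8394.

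**Figure D1:**
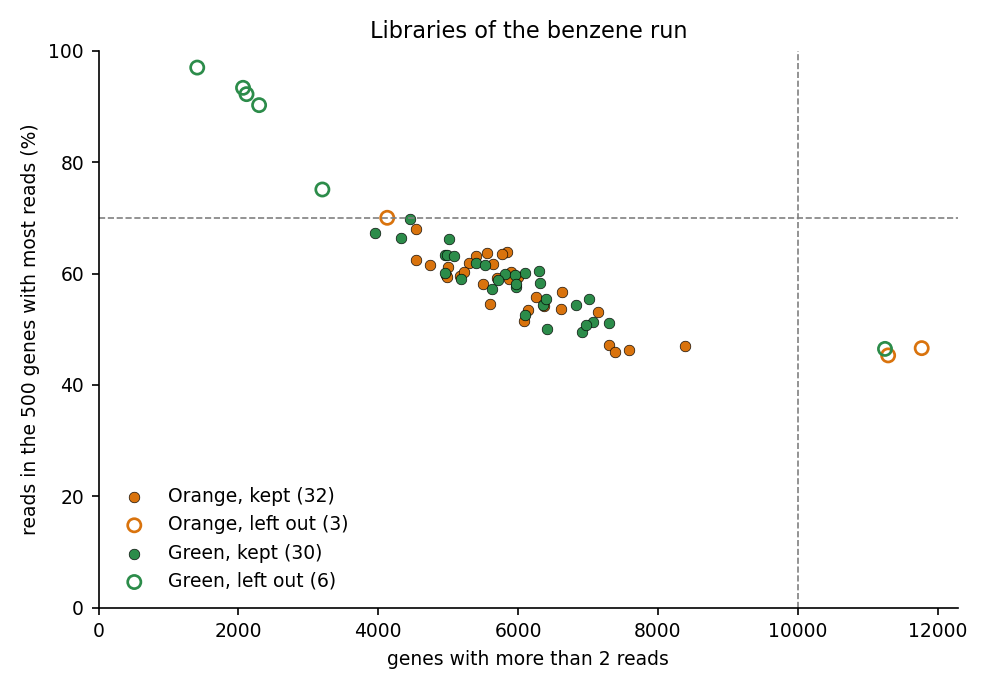
Genes with more than 2 reads (x axis) against the share of reads in the 500 genes with most reads (y axis, %) for the 71 libraries of the benzene run. Filled points are the 62 kept libraries, open points the 9 left out, and dashed lines the 2 limits. Orange and Green kept libraries are intermixed, and 5 open Green points stand at the upper left with 3200 genes or fewer.

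Both stains expressed the genes that define this cell line. All 12 K562 markers were detected widely enough to be compared, and the fetal globin gene HBG2 was found in each of the 62 libraries, at 1373, 2407 and 7410 CPM (lowest, median, highest; counts divided by the library's reads on genes and scaled to CPM) in Orange and 1547, 2142 and 8221 CPM in Green. PRAME, a tumour antigen, had 3387 CPM in the summed Orange and 3137 CPM in the summed Green reads. The transcription factor gene LMO2 had the highest log2 ratio of the markers (0.67), at sums of 9.72 and 5.74 CPM, and the erythroid factor gene NFE2 the lowest (-0.68), at 298.5 and 477 CPM. Of 13 markers of other cell types, the T cell gene CD3E and the B cell gene MS4A1 had 0 reads, which allows up to 0.0701 CPM in the summed Orange and 0.0730 CPM in the summed Green reads (3 reads). CD14 had 1 read in all, while CD3D, another T cell gene, had 1848 Orange and 1696 Green reads. The summed level of these 13 genes was 62.6 to 1683 CPM per Orange library and 107 to 2621 CPM per Green library and most of its reads were on KRT8, KRT18 and VIM, which are not specific to 1 cell type.

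Gene by gene, the stains differed in many genes of both directions. Reads of the 32 Orange libraries (42784027) and of the 30 Green libraries (41113192) were summed, and for each gene with more than 2 reads in at least 20% of the libraries of a stain the log2 ratio of Orange CPM plus 1 to Green CPM plus 1 was taken. Of 9717 genes compared, 1237 (12.7%) were at least 2-fold higher and 1185 (12.2%) at least 2-fold lower in the Orange sum. The ratios had a median of 0.037 and an SD over genes of 1.00. In the imatinib run, where the same dyes marked cells with imatinib (1 µM, 1 h) and untreated cells, 3.84% of 11086 genes were at least 2-fold higher and 4.34% at least 2-fold lower, with an SD of 0.56. The runs share no libraries, and their kept libraries differed in complexity, with medians of 7748 (Orange) and 8052 (Green) genes in the imatinib run, whose part in the difference was not tested.

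These ratios narrowed with the number of libraries in which a gene was found. Among 4578 genes found in under 50% of libraries (mean of the stains), 40% were past 2-fold in one or other direction. Among 3494 genes found in 50 to 90% of libraries the share was 15.8%, and among 1645 genes found in 90% or more it was 2.19%, with an SD of the ratio of 0.38. A single library gave a median of 26.8% of a gene's Orange reads and 28.3% of its Green reads. The imatinib run had the same order at lower shares, 20.1%, 3.89% and 0.062%.

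**Figure D2:**
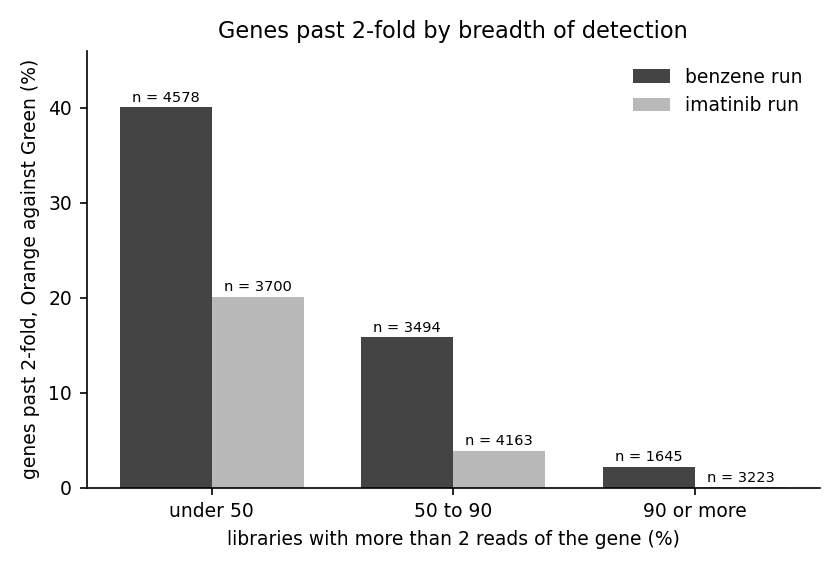
Share of genes past 2-fold between Orange and Green sums (y axis, %) by the share of libraries with more than 2 reads of the gene (x axis, %, mean of the stains), in the benzene run (dark) and the imatinib run (light), with the number of genes above each bar. In the benzene run the bars drop from 40% to 2.19%, and each stands above that of the imatinib run.

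Genes found in at least 50% of the libraries of a stain and past 2-fold in the same direction with and without the library of each stain richest in the gene numbered 337 higher and 271 lower, out of 5834 genes so widely found. The 12 highest and 12 lowest ratios of this set are described here, as values that the ranking itself chose. The highest was that of ATG9A (chromosome 2, 220084102 to 220094439, minus strand, GRCh37), a lipid scramblase of autophagosome formation. It had 0, 13.7 and 1322 CPM in the Orange and 0, 1.10 and 62.3 CPM in the Green libraries, and was found in 23 of 32 and 14 of 30. The sums of 150.3 and 11.9 CPM gave a log2 ratio of 3.56, with a counting interval of 3.43 to 3.68. This interval and all those below are exact and 95%, and cover the counting of reads only, not the spread between cells or cultures. Orange and Green libraries overlapped, with 24 of 32 Orange libraries above the Green median.

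CMAS (chromosome 12, 22199152 to 22218608, plus strand), which activates sialic acid for glycoproteins and glycolipids, differed most evenly over the libraries. It was found in 27 of 32 Orange libraries (84.4%, interval 67.2 to 94.7%) and in 18 of 30 Green libraries (60%, 40.6 to 77.3%). The Orange libraries had 0, 56.3 and 470.3 CPM, the Green libraries 0, 5.35 and 68 CPM, and 26 of 32 Orange libraries lay above the Green median. Its mean log2(CPM + 1) was 2.61 higher in Orange, which exceeded the SDs over libraries of 2.43 and 2.14. It was the only 1 of the 24 genes whose difference in means was larger than the larger of its SDs.

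The other 10 genes at the high end had varied functions. ACTMAP, a protease that trims new actin, had a log2 ratio of 3.48, and the cell-surface oxidase gene ENOX2 one of 3.25. ZYG11A, a substrate receptor of ubiquitin ligases, had 3.17, but 1 library held 76.3% of its Orange reads, and its ratio without the richest library of each stain was 1.70. PARP4, which encodes the ADP-ribosyl transferase of vault particles, had 3.10, and CHMP2B, a subunit of the membrane-cutting ESCRT-III complex, 2.95. DHX35, an RNA helicase, had 2.79, the kinesin light chain gene KLC1 2.72 and the lipoprotein receptor gene LRP8 2.68. ANKFY1, an endosomal Rab5 effector, and the zinc finger gene ZNF83 both had 2.66, with 1 library holding 62% of the Orange reads of ANKFY1, whose ratio was 1.91 without the richest library of each stain. In all 12 genes some libraries of each stain had 0 reads, and the stains overlapped.

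At the low end stood TMEM63A (chromosome 1, 226033237 to 226070080, minus strand), a mechanically gated ion channel gene. It was found in 6 of 32 Orange and 15 of 30 Green libraries, at 0, 0 and 83.6 CPM against 0, 2.14 and 804.3 CPM, and the log2 ratio of the sums was -3.56 (-3.71 to -3.41). In GENCODE v44lift37, exons of TMEM63A overlap those of EPHX1, the epoxide hydrolase gene of benzene metabolism. If the annotation used for counting has this overlap too, reads there could have been assigned to neither or to the wrong gene. GNAI2, an inhibitory G protein subunit, had a ratio of -3.23 and ADAMTS3, a procollagen-processing protease, one of -2.92. In both genes 1 Green library held most of the Green reads (71.2% and 67.4%), and without the richest library of each stain the ratios were -2.24 and -1.63.

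CHAC1 (chromosome 15, 41245160 to 41248710, plus strand), an enzyme that degrades glutathione and is a known target of ATF4, was found in 11 of 32 Orange and 20 of 30 Green libraries. Its values were 0, 0.819 and 213 CPM in Orange against 0, 10.7 and 1366 CPM in Green, with 9 of 32 Orange libraries above the Green median. The log2 ratio was -2.39 (-2.48 to -2.30) in the benzene run and -2.08 in the imatinib run, where its sums were 2.49 and 13.8 CPM and it was found in too few libraries to be compared. CDCA5, the cohesion factor sororin, was above the Green median of 56.9 CPM in 5 of 32 Orange libraries. Its ratio was -2.38, or -1.55 without the richest libraries, and 1 library held 60.6% of its Green reads.

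RAB29, a small GTPase of the trans-Golgi and lysosomes, had a ratio of -2.68, TMEM80 one of -2.65 and the actin-binding coronin gene CORO2A one of -2.62. XPNPEP3, a mitochondrial aminopeptidase, was at -2.60, the cyclin Y gene CCNY at -2.47, the zinc finger gene ZNF7 at -2.38 and the Golgi GTPase gene ARF3 at -2.37. Over all 24 genes the mean difference over libraries had the same sign as the ratio of sums, in the same libraries that had chosen the genes. For 7 of the 12 highest and 5 of the 12 lowest genes, GENCODE v44lift37 has exons of another gene on the same bases. The study counted reads on an ENSEMBL release, in which these overlaps were not checked. How far they touch the counts is therefore not known.

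**Figure D3:**
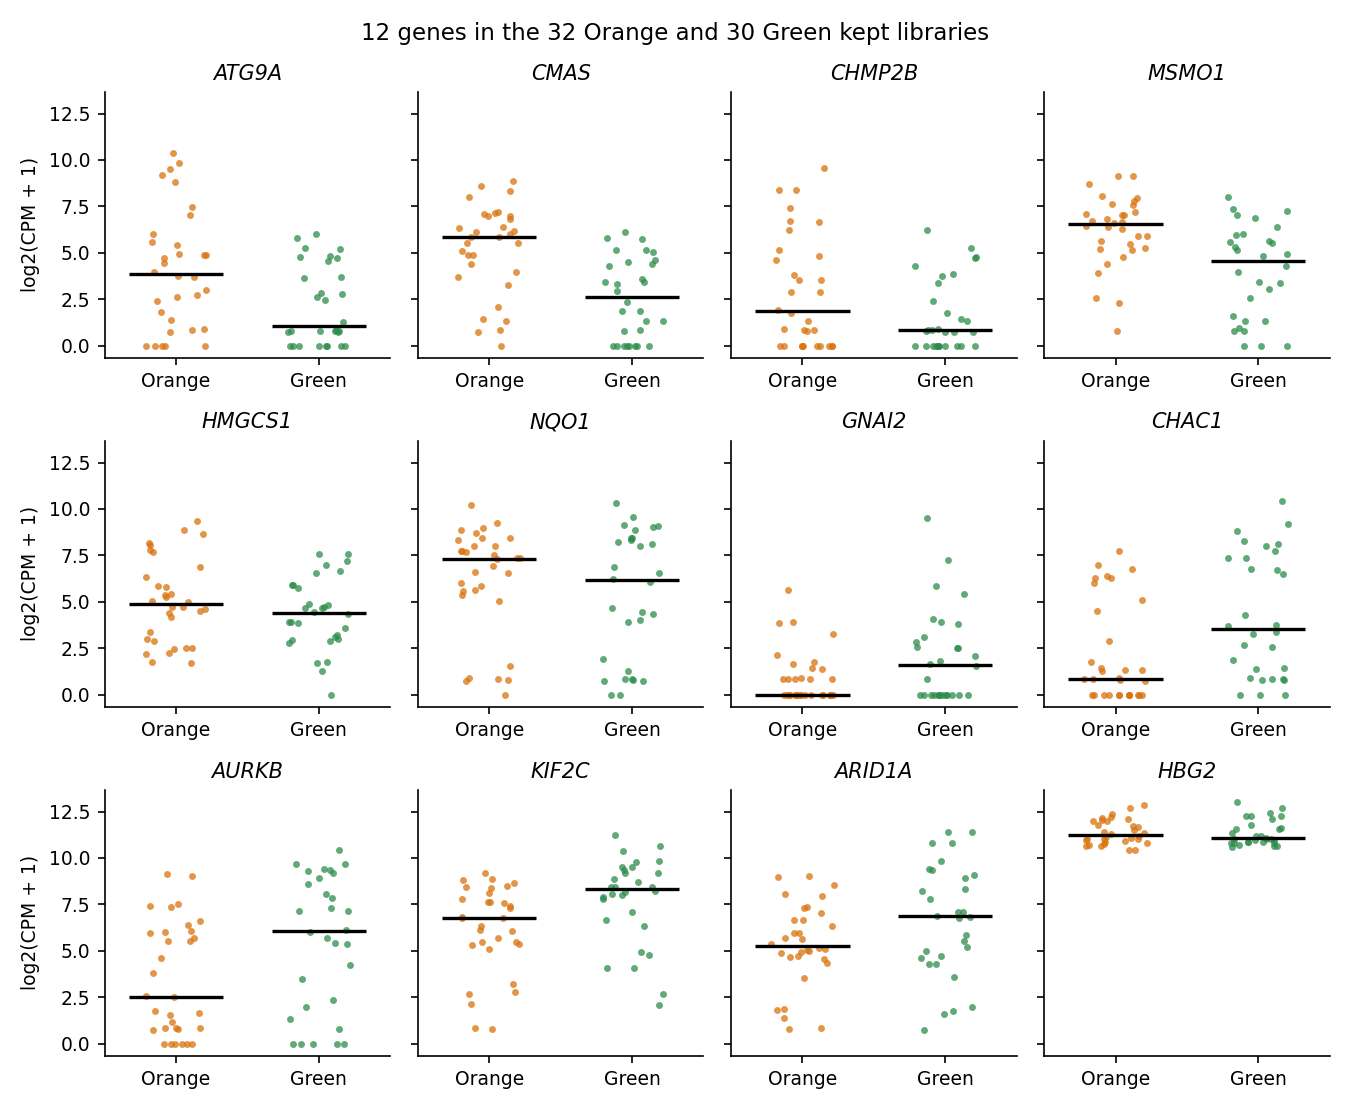
log2(CPM + 1) of 12 genes (y axis) in each of the 32 Orange and 30 Green kept libraries, with black bars at the medians. ATG9A, CMAS, CHMP2B and MSMO1 have higher Orange medians and GNAI2, CHAC1, AURKB, KIF2C and ARID1A lower ones, with stains that overlap throughout, and the medians of HBG2 lie close together.

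Differences in genes found in nearly all cells were fewer and smaller. Of 1474 genes with more than 2 reads in at least 90% of the libraries of both stains, 11 (0.746%) were at least 2-fold higher and 14 (0.95%) at least 2-fold lower in Orange, and in the imatinib run 0 and 2 (0.0697%) of 2868. Genes named from these 25 were chosen after their values were seen. ARID1A, a DNA-binding subunit of the BAF chromatin remodelling complex, had the largest size, with 0.748, 37.5 and 525 CPM in Orange against 0.644, 114.6 and 2740 CPM in Green and a ratio of -2.19 (-2.24 to -2.15). GNB1, a G protein beta subunit, followed at -1.67 and KIF2C, a mitotic kinesin, at -1.53. SMC1A of the cohesin ring was at -1.21, and the mitochondrial fission gene DNM1L was at -1.09.

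Of the 11 higher genes, CEP57, a centrosome protein, had 0, 80.5 and 527 CPM in Orange against 0.679, 22.8 and 240.5 CPM in Green, and a ratio of 1.54. CAPRIN1, which binds mRNA in stress granules, was at 1.42, HMGCS1 of the cholesterol pathway at 1.27 and the splicing factor SRSF9 at 1.12. LDHAP4 (1.24) is a pseudogene of LDHA, and NPM1P7 (-1.12) one of NPM1, so reads of both can come from the parent gene, and 1 library held 42.6% of the Green reads of NPM1P7, whose ratio was -0.48 without the richest library of each stain. In each of the 25 genes the mean difference over libraries had the same sign as the ratio and was smaller than the larger SD.

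The 3 libraries with 10000 or more genes, which the rule had set aside, gave values of the same run that the kept libraries had not used. They were 2 Orange and 1 Green library, and the labels do not give the number of cells behind them. The study also made bulk samples of many cells in each experiment, and the labels do not say whether these 3 libraries are such bulks. Their title numbers, 92 to 94, stand apart from those of the other libraries with a column (1 to 71). ERCC RNA took 0.93 to 1.34% of their reads, against at least 2.06% in the kept libraries. Their comparison with sums over single cells may set bulk against single-cell values. A sign kept or lost in them is no check in further single cells. Of the 9717 genes, 664 (6.83%) were at least 2-fold higher and 677 (6.97%) at least 2-fold lower in their Orange sum. Of the 1237 genes higher in the kept libraries, 654 (52.9%) were above 0 there, next to 51.2% of all genes, and 139 (11.2%) were at least 2-fold higher. Of the 1185 lower genes, 533 (45%) were below 0, next to 48.5% of all genes, and 99 (8.35%) were at least 2-fold lower. Across the 9717 genes the ratios of the kept libraries and of these 3 libraries had a Pearson correlation of -0.0031 and a Spearman correlation of -0.0091, as a description, since genes of the same libraries share depth and composition. The SD of the log2 ratio of the 2 Orange libraries to each other was 0.90, and that of their sum to the Green library was 0.715. The first sets single libraries against each other and the second uses a sum of 2, so their sizes cannot be ranked.

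For the named genes the same held. Of the 12 highest, 5 were above 0 in the libraries with 10000 or more genes, and of the 12 lowest, 5 were below 0. DHX35 was the only 1 of the 24 to pass 2-fold in the same direction there, with 32.5 and 74.3 CPM in the Orange libraries and 21.5 CPM in the Green library (log2 ratio 1.24). ATG9A had 52.9 and 67.8 CPM against 48.1 CPM, and CMAS 107 and 57.2 CPM against 116 CPM. Of the 25 genes found in at least 90% of libraries, 3 of the 11 higher and 6 of the 14 lower genes kept their sign. Set beside the imatinib run, the ratios of 9393 genes compared in both runs had a Pearson correlation of -0.0010 and a Spearman correlation of 0.0026.

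**Figure D4:**
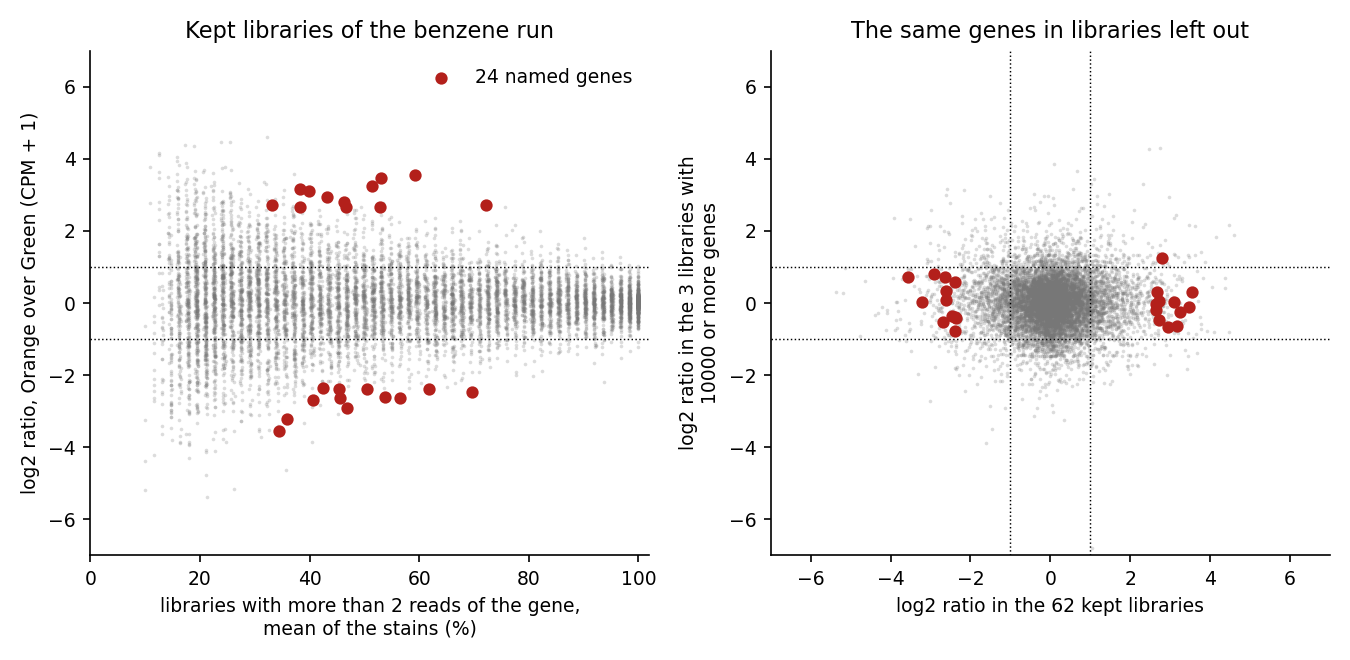
Left, log2 ratio of Orange to Green sums in the kept libraries (y axis) against the share of libraries with the gene (x axis, %), with 9717 genes in grey and the 24 named genes in red. Right, the ratio in the 3 libraries with 10000 or more genes (y axis) against that in the 62 kept libraries (x axis). Ratios spread widely for genes of few libraries and narrowly for genes of many, and the red points scatter around 0 on the y axis of the right panel.

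Genes of 23 lists, each of a pathway or a cell type, were then read against the 12.7% higher and 12.2% lower of all genes. The share past 2-fold fell with breadth of detection, from 40% under 50% of libraries to 2.19% at 90% or more. The lists were not matched for breadth, so a lower share is not by itself a trait of their genes. Of 631 listed genes 513 were compared, of which 35 (6.82%) were at least 2-fold higher and 31 (6.04%) at least 2-fold lower in Orange. In all 66 the stains overlapped, and in none was the mean difference over libraries larger than the larger SD. These counts were not taken over all genes. Ranges over so many libraries, often including libraries without reads of the gene, overlap almost by construction. Neither count is therefore read as a trait of the listed genes. Of the 35 higher genes 19, and of the 31 lower genes 10, kept their sign in the libraries with 10000 or more genes.

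The best-known benzene-activating enzymes were not detected at this depth. CYP2E1 and myeloperoxidase (MPO) had 0 reads in the 62 libraries, as did AHR itself and its targets CYP1A1, CYP1B1 and AHRR. EPHX1, which hydrates the epoxide, had 36 Orange and 215 Green reads in 2 and 5 libraries. The partner of AHR, ARNT, was at 0, 23.2 and 566 CPM in Orange against 0, 11.8 and 195 CPM in Green, with a ratio of 1.24, and TIPARP, a further AHR target, had a ratio of 0.18. Of 35 genes in this list, 18 were compared. At least 2-fold higher were 3 (16.7%) and at least 2-fold lower 0, beside 12.7% and 12.2% of all genes. The median ratio was -0.016, beside 0.037 over all genes.

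Of the enzymes that dispose of phenols and quinones, some were level between the stains and 2, SULT1A1 and GSTM4, were past 2-fold. GSTP1, the main glutathione transferase of these cells, had 2157 CPM in Orange and 2098 CPM in Green and was found in every library. NQO1 had 0, 159.7 and 1181 CPM in Orange against 0, 70.1 and 1265 CPM in Green, and its sums of 200.7 and 210.9 CPM gave a ratio of -0.07 (-0.11 to -0.03). The mean of its log2(CPM + 1) was 0.87 higher in Orange, within SDs of 2.90 and 3.46, so the sign of its difference depended on the weight given to single libraries. NQO2 was at 0.07. The phenol sulfotransferase gene SULT1A1 was the highest of the list, at 2.47 (2.36 to 2.57), but it was found in only 13 of 32 Orange and 10 of 30 Green libraries with medians of 0.738 and 0.789 CPM, and 1 library gave 49% of its Orange reads. GSTM4 was at 1.12, or 0.91 without the richest libraries, and it shares much of its sequence with other GSTM genes. ALDH9A1, an aldehyde dehydrogenase, had the lowest ratio of the list (-0.998), although its median was higher in Orange (14.04 CPM) than in Green (7.08 CPM).

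Antioxidant genes of the NRF2 programme showed no common direction. Of 30 compared, 1 (3.33%) was at least 2-fold higher and 2 (6.67%) at least 2-fold lower, beside 12.7% and 12.2% of all genes. The median was -0.045, and 13 were above 0. HMOX1, a strongly inducible target, had 2 reads in Orange and 0 in Green, and SRXN1 3 and 0, both at the limit of 3 reads. TXNRD1 had 6.91, 139.5 and 557 CPM in Orange against 2.85, 134.1 and 889 CPM in Green, and a ratio of -0.04 (-0.09 to 0.00). The glutathione synthesis gene GCLM was at 0.33, the cystine transporter gene SLC7A11 at 0.14, PRDX1 at 0.04 and the ferritin gene FTL at 0.02. NFE2L2 itself was at -0.96, with medians of 76.3 CPM in Orange and 128.9 CPM in Green. Called genes included ABCC1 (1.33), a glutathione-conjugate pump, and GLRX (-1.19), a glutaredoxin, and neither of these kept its sign in the libraries with 10000 or more genes. In ABCC1, 1 library gave 52% of the Orange reads, and the ratio was 0.54 without the richest library of each stain.

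Genes of the DNA damage response were divided. Of 12 p53 targets compared, MDM2 (1.18) and TNFRSF10B (1.08) were higher and SESN2 (-1.16) and POLH (-1.19) lower, while CDKN1A had 8 Orange and 13 Green reads. The share was 16.7% in each direction, beside 12.7% higher and 12.2% lower of all genes. MDM2 was found in 30 of 32 Orange and 23 of 30 Green libraries at medians of 23.5 and 20.0 CPM, and its ratio without the richest libraries was 0.95. The p53 target CCNG1, next in reads, was at 0.72. Of 37 repair genes, 2 (5.41%) were higher and 5 (13.5%) lower, beside the same shares of all genes, with a median of -0.025. The checkpoint kinase gene CHEK2 had 0, 29.3 and 784 CPM in Orange against 0, 1.41 and 219 CPM in Green, and a ratio of 1.82. MUTYH, a glycosylase for oxidised bases, was at -1.88, NTHL1 at -1.45, MRE11 at -1.05, and POLB at 1.06. LIG3 was at -1.41, but 1 library held 89.4% of its Green reads, and without the richest library of each stain its ratio was 1.02. The topoisomerase genes TOP2A (-0.25) and TOP2B (0.73) were within 2-fold. So were the repair genes with most reads, PRKDC, the DNA-dependent protein kinase, at -0.12 and FANCD2 of the Fanconi pathway at -0.29.

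Stress genes outside these programmes gave values near 0 for the abundant members and scattered values for the sparse ones. Of 22 heat shock genes, HSP90AA1 was at 0.13, HSP90AB1 at 0.16 and HSPA1A at -0.14, while CHORDC1 (1.06) and FKBP4 (1.01) were higher and SERPINH1 (-1.35) lower. These were 9.09% higher and 4.55% lower, beside 12.7% and 12.2% of all genes. In the list of ATF4 and the unfolded protein response, 31 of 34 genes were within 2-fold, among them ATF4 (0.09), DDIT3 (-0.09) and HSPA5 (0.15). Higher were 5.88% and lower 2.94% of this list, beside the same shares of all genes. The tryptophanyl-tRNA synthetase gene WARS1 was at -0.30. Beside CHAC1, its called members were ATF3 (1.18) and PPP1R15A (1.19), and 1 library gave 63.3% of the Orange reads of ATF3, whose ratio was 0.07 without the richest library of each stain. The immediate-early genes, which answer growth factors within minutes, were called in both directions, with JUNB (2.20), SRF (1.24) and ATF3 higher and FOSL1 (-2.07), DUSP1 (-1.67) and JUN (-1.20) lower. Of 21 compared, 3 were higher and 3 lower (14.3% each), beside 12.7% and 12.2% of all genes. The median of the immediate-early list was -0.045, next to -0.96 in the imatinib run. FOS (-0.57) and EGR1 (-0.54) were below 0, at -1.23 and -1.42 in the imatinib run. EGR1 was found in 31 of 32 Orange and 30 of 30 Green libraries, at medians of 93.9 and 198.6 CPM.

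In the list of NF-kB and inflammatory genes, 3 of the 10 compared (30%) were higher and 2 (20%) lower, beside 12.7% and 12.2% of all genes. NFKB1 was at 1.77, found in 11 of 32 Orange and 4 of 30 Green libraries, CXCL2 at 1.33 and REL at 1.14. The inhibitor gene NFKBIE was at -2.78, with 58 Orange and 624 Green reads, and the adhesion molecule gene ICAM1 at -1.94. For ICAM1 1 library held 73.1% of the Green reads, and the ratio was -1.10 without the richest library of each stain. All medians over libraries of these 5 genes were below 1 CPM. The feedback inhibitors NFKBIA (0.43) and TNFAIP3 (0.79) had most reads of the list. Of the metallothionein list only MTF1, the metal-sensing factor, was compared, at -0.04, and 8 of its 12 genes had 0 reads.

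Erythroid genes were close between the stains. HBG1 (-0.02), HBG2 (0.02) and HBE1 (0.26) were found in every library, and HBZ was at 0.53. Of 23 genes compared, 15 were above 0 with a median of 0.23, next to -0.24 in the imatinib run. The lowest was the repressor gene GFI1B (-0.86), and RHAG of the Rh complex was at -0.16. The erythropoietin receptor gene EPOR, at 1.08, was found in 10 of 32 Orange and 4 of 30 Green libraries. In heme synthesis, the last enzyme FECH (-1.06) was lower and PPOX (1.03) higher, and the mitochondrial iron importer gene SLC25A37 was at 0.54. The decarboxylase gene UROD was at -0.14.

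By count, cholesterol synthesis was the list with most genes called in one direction, as seen once the values were known. By share, the NF-kB list was higher, at 30%. Of the 28 cholesterol synthesis genes, all of them compared, 6 (21.4%) were at least 2-fold higher and 1 (3.57%) lower. Over all genes these shares were 12.7% and 12.2%. In the cholesterol list 21 genes were above 0 and the median was 0.18. MSMO1, a sterol methyl oxidase, had 0.719, 91.4 and 561 CPM in Orange against 0, 22.8 and 260.4 CPM in Green. It was found in 31 of 32 and 22 of 30 libraries, and 27 of 32 Orange libraries were above the Green median. Its ratio was 1.53 (1.46 to 1.6), and its mean difference of 2.19 lay below the larger SD of 2.51. HMGCS1, which makes the precursor of mevalonate, was at 1.27 and INSIG1, which holds the sterol sensor in the endoplasmic reticulum, at 1.07. TM7SF2 (3.04) was found in 10 of 32 Orange and in 3 of 30 Green libraries. LSS, the cyclase that makes lanosterol, was at -1.74. The genes with most reads, EBP (0.22) and FDFT1 (0.04), were close to 0. The summed level of the list overlapped, at 2928, 5331 and 10026 CPM per Orange and 1532, 5003 and 8426 CPM per Green library. In the libraries with 10000 or more genes, 3 of the 7 called genes kept their sign, with MSMO1 at 0.98 and HMGCS1 at -0.39. Without the richest library of each stain TM7SF2 was at 3.79, and 1 library had held 66.4% of its Green reads.

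In the list of glycolysis and hypoxia genes, 5 of 26 were higher (19.2%) and 0 lower, beside 12.7% and 12.2% of all genes. The median of the list was 0.20. The 5 were PDK1 (1.94), which holds back pyruvate oxidation, the hexokinase gene HK2 (1.37), the demethylase gene KDM3A (1.16), the glucose transporter gene SLC2A1 (1.10) and VEGFA (1.09). The abundant enzymes were level, with ALDOA at 0.05 and ENO1 at 0.03, and PKM was at -0.65. For KDM3A 1 library gave 59.5% of the Orange reads, and for PDK1 1 library gave 58.6% of the Green reads. With the richest library of each stain left out, KDM3A was at 0.37 and PDK1 at 2.67. Of the 5 genes 1, SLC2A1, kept its sign in the libraries with 10000 or more genes.

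Cell cycle genes were past 2-fold at shares below the 12.7% and 12.2% of all genes in each direction. The shares of all genes include sparsely found genes, which passed 2-fold most often, and were not matched for breadth. Of the 34 and 37 genes below, 13 and 13 were found in at least 90% of the libraries of both stains. Of 34 genes of G1/S and replication, 0 were higher and 3 (8.82%) lower, MCM10 (-1.36), GINS4 (-1.29) and CHAF1A (-1.25), with a median of -0.27, while MCM7 (0.29) and CDC45 (0.41) were above 0. ATAD2, a chromatin ATPase, had the highest ratio of these (0.99). The summed level of the G1/S list had medians of 6893 CPM per Orange and 6691 CPM per Green library. Of 37 genes of G2/M and mitosis, MKI67 (1.02) and CCNA2 (1.04) were higher and 4 (10.8%) were lower, with a median of -0.078. Those with most reads, the mitotic cyclin gene CCNB1 and the kinetochore gene CENPF, were at 0.43 and -0.06. AURKB, the kinase of the chromosomal passenger complex, had 0, 4.78 and 571 CPM in Orange against 0, 65.8 and 1384 CPM in Green, and a ratio of -1.92 (-1.98 to -1.86). KIF2C had 0.715, 106.7 and 590 CPM against 3.22, 318 and 2418 CPM, with 7 of 32 Orange libraries above the Green median, and UBE2S was at -1.15. The phosphatase gene CDC25B was at -1.85, or -2.76 without the richest library of each stain, and 1 library held 65% of its Orange reads. None of the 6 genes kept its sign in the libraries with 10000 or more genes. The summed level of the G2/M list was 921, 5865 and 13428 CPM in Orange and 2522, 5645 and 14571 CPM in Green, so its medians lay side by side while single genes differed.

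Genes of the basic machinery were within 2-fold in the kept libraries. None of 77 ribosomal protein genes (median 0.063, range -0.18 to 0.52), 30 proteasome genes (0.025) or 15 mitochondrially encoded genes (-0.17) was past 2-fold. Most of them, 73, 25 and 15, were found in at least 90% of the libraries of both stains. Of all genes found so widely, only 0.746% were at least 2-fold higher and 0.95% at least 2-fold lower. Among ribosomal genes RPL28 (0.52) was highest and RPS13 (-0.18) lowest, with those of most reads, RPLP0 and RPL3, at 0.05 and 0.12. Among proteasome genes PSMB6 (0.90) was highest, at medians of 846.5 CPM in Orange and 384 CPM in Green, and PSMD11 (-0.60) lowest, while PSMB4 was at -0.20 and PSMB1 at 0.00. Among mitochondrial genes MT-CO1 (0.11) was highest, MT-ND6 (-0.74) lowest, and MT-ND4 and MT-CO2 were at -0.09 and -0.10. The mitochondrial genes had 14 of 15 ratios below 0 in the sums, while the median of their mean differences over libraries was 0.027. Their median ratio was -1.16 in the libraries with 10000 or more genes, with 0 of 15 above 0, and 0.24 in the imatinib run, with 15 of 15 above 0. Of 19 abundant long noncoding RNAs, the snoRNA hosts SNHG7 (-1.39) and SNHG8 (-1.41) were lower (10.5%, beside 12.2% of all genes compared). SNHG8 was above the Green median of 58.4 CPM in 5 of 32 Orange libraries. MALAT1 was at 0.30 in the kept libraries and at -1.33 in those with 10000 or more genes. SNHG12 (0.53) and SNHG1 (-0.53) were within 2-fold.

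Targets of BCR-ABL and STAT5 had a median of -0.12 over 18 genes, next to -0.35 in the imatinib run. STAT5A, which had most reads, was at -0.56. SPRY4, a feedback inhibitor of ERK signalling, had 48 Orange and 2335 Green reads and a ratio of -4.77 (-4.99 to -4.53), but was found in only 5 of 32 and 8 of 30 libraries, with medians of 0 CPM in both stains, and was at -0.92 in the libraries with 10000 or more genes and at -1.6 in the imatinib run. SPRED2 was at -1.39, or -0.67 without the richest library of each stain, and 1 library held 64.5% of its Green reads. The BCR gene was at 1.71, MYC at -0.09 and CCND2 at 0.36. Among 13 compared genes of the BCL2 family, BCL2L2 was at 1.28 and the pore-forming BAK1 at -1.82. For BAK1, 1 library held 97.9% of the Green reads, and without the richest library of each stain its ratio was 1.34. BNIP3L was found in 28 of 32 Orange and 19 of 30 Green libraries, at medians of 127 and 9.51 CPM and a ratio of 0.88. BCL2L13 was at 0.26.

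**Figure D5:**
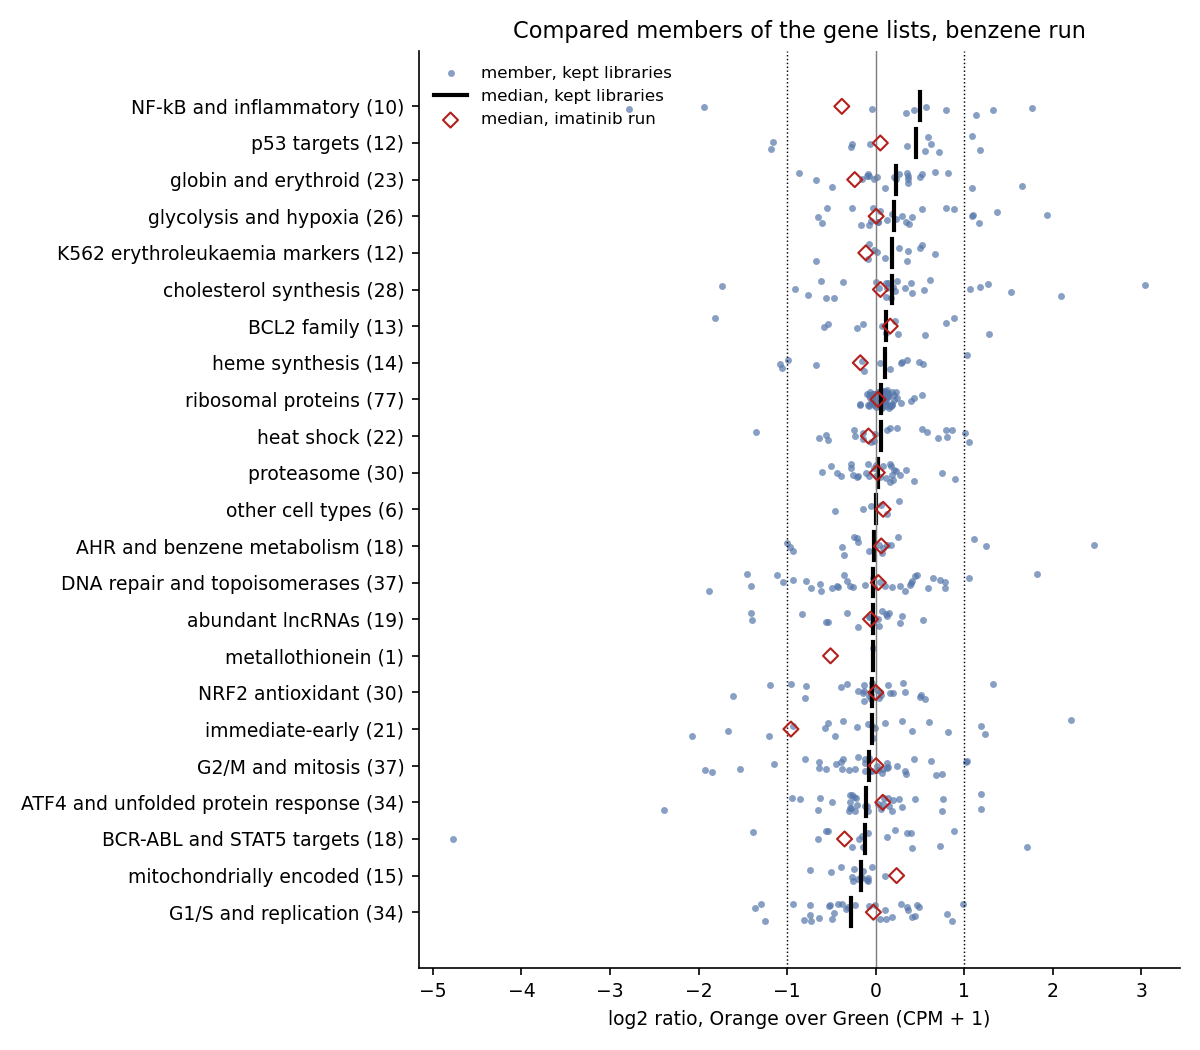
log2 ratio of Orange to Green sums (x axis) for the compared members of 23 gene lists (1 per row, with the number compared), in the kept libraries of the benzene run. Points are genes, black bars the median of each list and red diamonds its median in the imatinib run, and dotted lines mark 2-fold. The black bars lie between -0.27 and 0.50, and the ribosomal and proteasome genes stay inside the dotted lines.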

How the data were processed

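Titles, stains and treatments were taken from the sample labels. The authors deposited gene counts, made per the labels and the study's methods with HISAT2 on GRCh37 with ERCC sequences and featureCounts (Subread 1.5.0), and the counts were used as deposited. Whether counting used strand is not given in the sources used here, and the authors' CPM table was not used. Here 92 ERCC rows were removed from CPM totals, 4 columns matching no title were not used, and no libraries were identical. Symbols, exons and coordinates came from GENCODE v44lift37 (55665 of 63677 identifiers, 99.0% of reads). The study counted on genes of an ENSEMBL release, whose exons were not used here.

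With 1 culture per stain, a test of counts such as edgeR could not be made within the run, so ratios of summed CPM (pseudocount 1) past 2-fold were counted. Poisson, binomial and conditional binomial intervals were exact (95%) and cover counting error only, since reads carry no molecular identifiers. Alternative scalings used edgeR 4.0.16 (TMM) and DESeq2 1.42.0 (size factors), with R 4.3.3, Python 3.11.15, numpy 2.4.6, pandas 2.3.3, scipy 1.17.1 and matplotlib 3.10.9. The ratio step was tested on simulated data.

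Named genes were the 12 highest and 12 lowest described in the text, and per list the highest, the lowest and the 2 with most reads, besides AHR, CYP1A1, CYP1B1, NQO1, HMOX1 and TXNRD1. Other list members past 2-fold, genes found in at least 90% of libraries and members given for context were named after their values were seen. The libraries, lists and rules were chosen with earlier results of these data known. No listed symbol was matched for 7 of 631 genes. Values of some listed genes are not reported here.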

Additional observations from a re-analysis of the deposited data

How the results depend on the processing

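In all, 2005 alternative values were computed for 197 results, of which 1980 were planned and 25 added after the data were seen. The counts of 1237 higher and 1185 lower genes became 618 and 624 with a pseudocount of 10 CPM, 492 and 411 with the mean of log2(CPM + 1) over libraries, 427 and 380 among genes found in 50% of the libraries of a stain, and 3101 and 2743 with no filter. In the added alternatives they were 11 and 14 among genes found in 90% of the libraries of both stains, and 664 and 677 in the libraries with 10000 or more genes. These settings test other genes, use other libraries or shrink low values by their construction. TMM factors gave 1135 and 1269, and DESeq2 size factors 1168 and 1240. List members at least 2-fold higher (35) became 15 with the pseudocount of 10, 21 with means over libraries, and 2 higher and 3 lower in 90% of both stains. Median genes per library were 4506 (Orange) and 4681 (Green) at 10 or more reads, and 5045 in Green after thinning to 500000 reads. None of the 240 planned values for the 24 named genes changed sign. These settings reuse the kept libraries in which the genes were chosen for extreme ratios, and leaving out the richest library was part of that choice. The unchanged signs were thus largely fixed in advance. In the libraries with 10000 or more genes, which may be bulks, 5 of the 12 highest and 5 of the 12 lowest kept their sign. With means over libraries, ABCC1 (-0.51), PPP1R15A (-0.76), ATF3 (-0.34), BAK1 (0.49), LIG3 (0.42) and ICAM1 (0.36) took the other sign, and without the richest library of each stain BAK1 (1.34) and LIG3 (1.02). Of 271 list medians, 25 in 11 lists changed sign.

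Depth was about even between the stains, and sparse detection, with 1 culture per stain, limits what the ratios show. No paired analysis was possible because the result comes from no test and the stains share no library numbers.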

Other observations

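Some listed genes were found in too few libraries to be compared, and their sums rest on a few cells. ALAS2, the erythroid enzyme that starts heme synthesis, had 84 Orange and 3546 Green reads, found in 4 of 32 and 5 of 30 libraries, with 1037 CPM in the highest Green library. OSGIN1, an NRF2 target, had 53 and 2957 reads, of which 1 library held 97.3% of the Green reads. The glutathione transferase gene GSTM2 had 1534 Orange and 139 Green reads, found in 6 and 2 libraries. The adult globin gene HBB had 4 Orange and 52 Green reads, and 1 library held 98.1% of the latter.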
